A study of Mus musculus with 6 samples.

Results

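The genes described here are the ATP-binding cassette (ABC) transporters, the organic anion transporting polypeptides (SLCO) and the organic cation and anion carriers of the SLC22 family, in diethylnitrosamine-induced liver tumours of mice. They were taken by gene symbol alone, as every row whose name is Abca to Abcg with a number, Slco with its subfamily code, or Slc22a with a number. This gave 89 of the 43346 rows of the deposited gene table, with 16 ABCA, 10 ABCB, 10 ABCC, 4 ABCD, 4 ABCE or ABCF, 6 ABCG, 14 SLCO and 25 SLC22 genes. The tumours came from SULF2-overexpressing animals (Sulf2-TTR in the labels), 3 with wild-type Gli1 (WT) and 3 with Gli1 knocked out (KO). Diethylnitrosamine (DEN) is a liver carcinogen, SULF2 is an extracellular sulfatase, and GLI1 is a transcription factor of the Hedgehog pathway. All 6 tumours share the carcinogen and the SULF2 overexpression, so neither can be examined here. The strain, sex and age of the animals, the extent of the Gli1 deletion and whether each tumour came from its own animal are not given in the labels. The p-values therefore measure only the spread between these samples, which may in part be technical.

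Hepatocytes clear the blood through these proteins. SLCO and SLC22 carriers on the sinusoidal side take up bile acids, hormones, drugs and organic cations, and ABC pumps on the canalicular side drive bile acids, phospholipid, sterols and conjugates into bile using ATP. A further set of ABC pumps returns conjugates to the blood, and others load lipoproteins, feed the peroxisome, serve the mitochondrion or, in the ABCE and ABCF classes, work on ribosomes without spanning any membrane. In rodents several of the genes stand in clusters of close paralogs.

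Summed gene counts ran from 75205624 to 132979502 reads per library, and the 89 transporters together took 0.319 to 0.486% of them. The 10 most counted genes took 26.1 to 33.5% of a library. Gli1 was counted at 7 to 20 reads in the WT libraries and at 3 or 4 in the KO libraries, in the direction of the labels. All 7 hepatocyte markers listed were expressed, with Alb alone at 12.6 to 15.1% of the counts. On the first principal component of all genes tested, which held 42.7% of the variance, WT replicate 3 (80.9) and KO replicate 1 (65.2) lay apart from the other 4 libraries (-67.9 to -7). The genotypes were therefore mixed along the main axis. WT replicate 2 also stood apart, with 6692 normalized CPM (CPM on library sizes scaled by TMM factors) summed over 7 pericentral markers against 577 to 1283 in the other 5 libraries, and 1399 against 130 to 264 without Cyp2e1, the most abundant of them.

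The transporter transcripts covered a wide range of levels. By deposited RPKM, which is scaled by length, 21 of the 89 genes had a mean of at least 10 over the 6 libraries, 29 lay from 1 to under 10, and 39 were below 1. Abcd3, which carries fatty acids into peroxisomes, had the highest mean at 80.6 ± 27.9 RPKM (SD, n = 6). High means were also found for the bile acid and drug carrier Slco1b2 at 54.8 ± 40.8, the conjugate pump Abcc2 at 46.4 ± 12.5 and the phosphatidylcholine translocator Abcb4 at 46.3 ± 15.8. The bile salt export pump gene Abcb11 had 36.1 ± 10.7 RPKM. No gene among the 30 highest exceeded its lower neighbour in this order by more than the larger of their SDs, so the order of neighbours is not resolved.

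**Figure D1:**
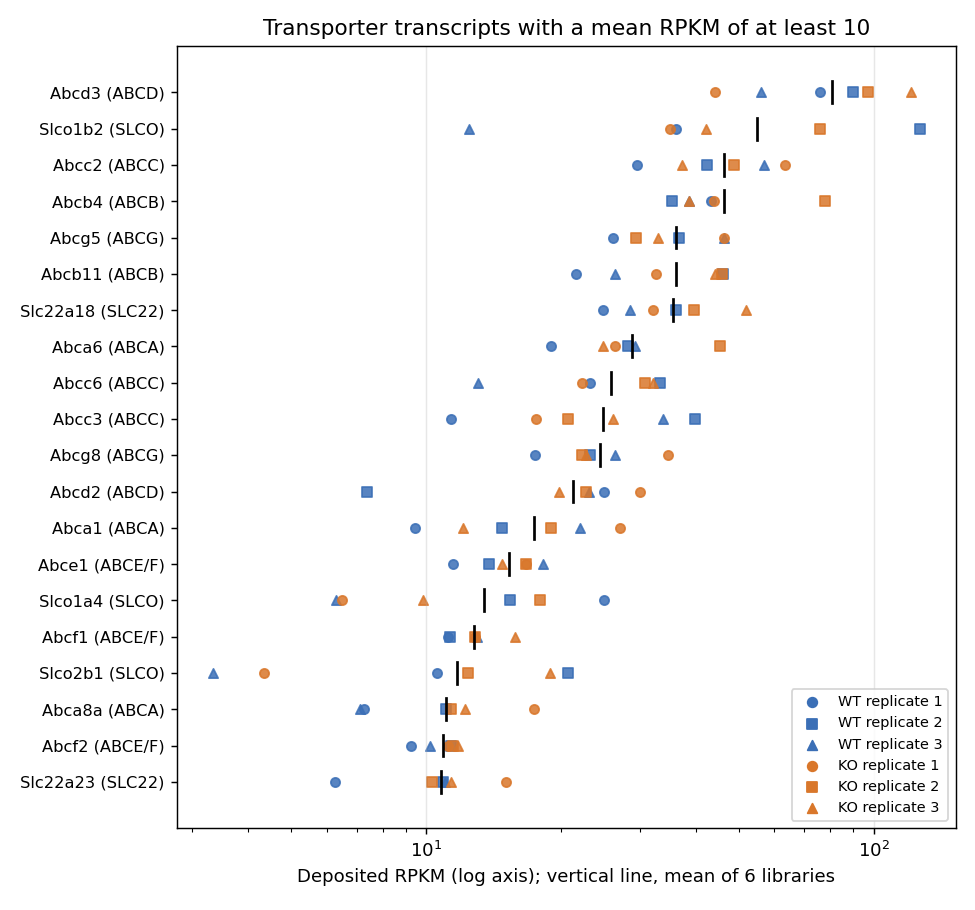
Deposited RPKM (log axis) of 20 transporters with a mean of at least 10 RPKM, with 1 point per library coloured by genotype and shaped by replicate number, and the mean of the 6 libraries as a vertical line. The genotypes overlap in every row but that of Abca8a, where all KO points lie above all WT points, and Slco1b2 spreads from 12.5 to 127 RPKM.

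At the low end, 5 genes had 0 reads in all 6 libraries. They were Abca12 (a skin lipid transporter), Abcb5, Slc22a16, Slc22a20 and Slco6b1, and 3 reads among 565176751 would allow up to 0.00531 CPM for each, from counting error only. A further 16 genes had some reads but were too low to test, the highest with 59 reads over all libraries. Among them were Slc22a6 and Slc22a8, the main organic anion carriers of the kidney, Slc22a12, the renal urate carrier, and Abcc8, the sulfonylurea receptor of pancreatic beta cells.

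No transporter differed between the genotypes at the threshold used. Of the 68 transporters tested by edgeR's quasi-likelihood test, 0 passed a false discovery rate (FDR, Benjamini-Hochberg over all genes) of 0.05, and every one had an FDR of 1. Over all 18359 genes tested, 0 passed as well (0%). At an unadjusted p under 0.05 there were 3 transporters, Abcc4, Slc22a26 and Slc22a29, which is 4.41% of those tested against 3.62% of all genes. That count was 7 of 70 without WT replicate 1 (4.08% of all genes) and 0 of 70 without KO replicate 3 (2.66% of all genes). It was 5 of 69 without WT replicate 3, where 9.47% of all genes passed. DESeq2 called 0 transporters, against 64 genes called in all (0.352%). With it, 4 of 84 transporters had an unadjusted p under 0.05, against 3.86% of all genes with reads. Limma voom called 0, with 1 of 68 at an unadjusted p under 0.05, against 3.48% of all genes. The KO libraries overlapped the WT libraries in normalized CPM for all 68 transporters, whereas the genotypes were free of overlap for 8.11% of all genes tested. In deposited RPKM, which carries no TMM scaling, 4 of the 68 (5.88%) did not overlap, Abca2, Abca8a, Abca14 and Abcb8, against 14.8% of all genes. All 4 were higher in KO on that scale only. The TMM factors it lacks were 0.901 to 1.007 in WT and 1 to 1.099 in KO. The median log2 fold change was -0.04 over the transporters and -0.01 over all genes. An absolute log2 fold change of at least 1 was reached by 4 transporters (5.88%) against 7.41% of all genes, and the sign was negative for 35 (51.5%) against 51.8%.

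By class, the largest negative medians were those of SLCO at -0.38 with 8 of 9 tested genes negative, and ABCC at -0.35 with 5 of 9. SLC22 had -0.16 with 10 of 16 negative, ABCG -0.11 with 3 of 5, ABCD -0.10 with 2 of 4 and ABCE with ABCF -0.05 with 3 of 4. ABCA had 0.17 with 2 of 12 negative, and ABCB 0.14 with 2 of 9. These medians describe each class and carry no test. Leaving out a single library could change the sign of the median for SLC22, ABCG, ABCD and ABCE with ABCF, but not for the other classes. Leaving out WT replicate 2 took the SLC22 median to 0.20 and that of SLCO to -0.08. The ABCG median was 0.17 without WT replicate 3, that of ABCD 0.05 without WT replicate 1, and that of ABCC -0.10 without KO replicate 3.

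**Figure D2:**
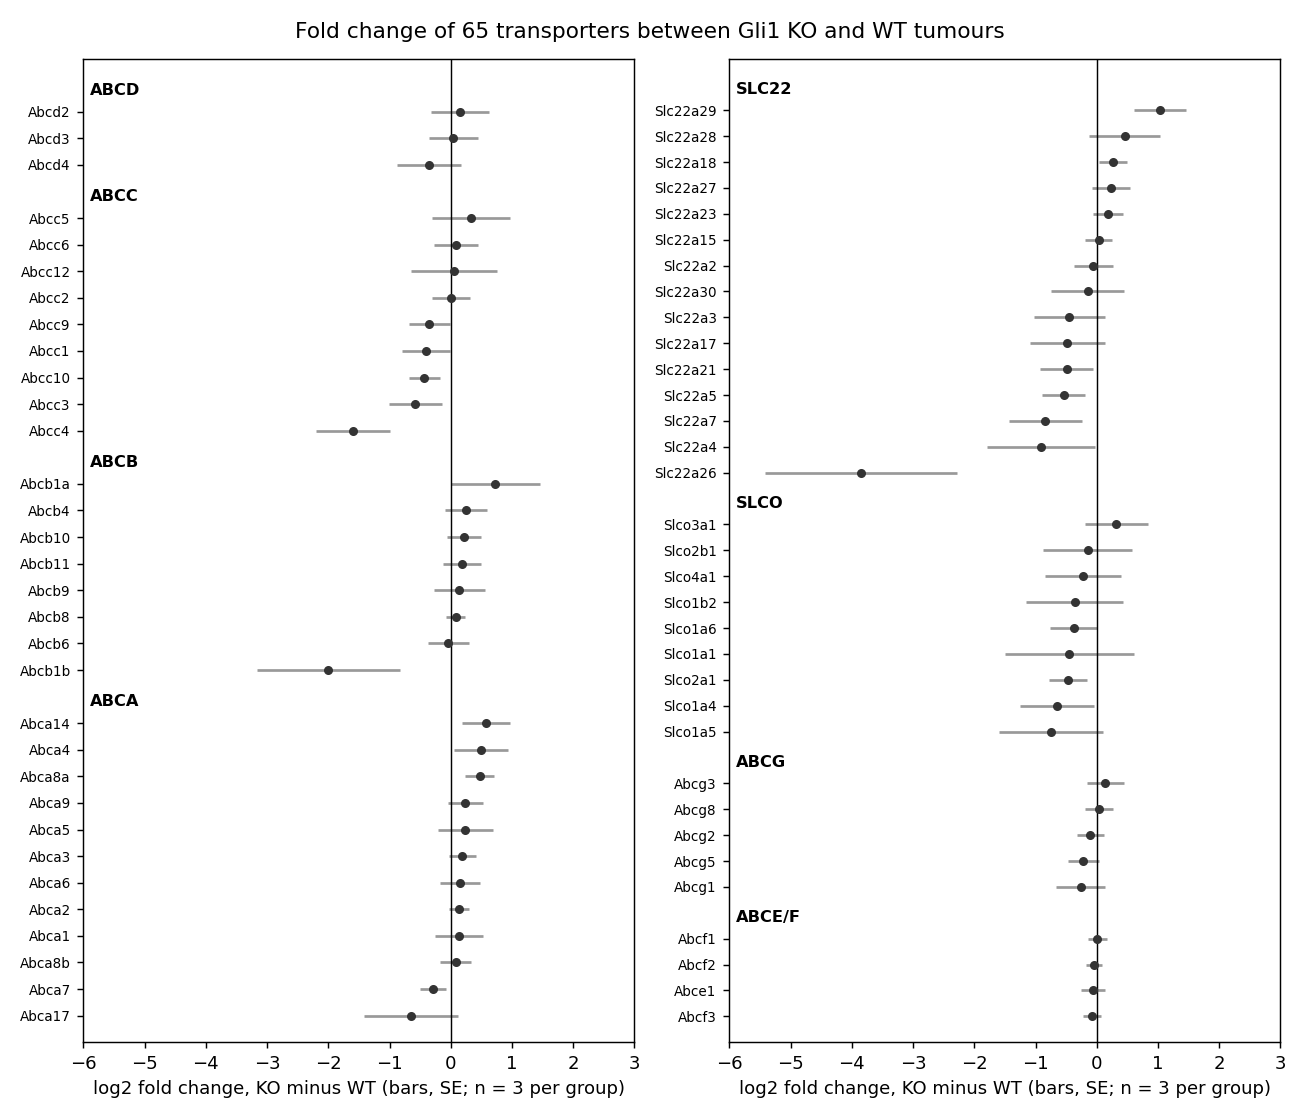
Log2 fold change (KO minus WT, edgeR, normalized counts) of 65 transporters, by class, with the standard error as bars (n = 3 libraries per genotype). Most points lie within 1 of 0, and the 3 farthest to the left are Slc22a26 at -3.85, Abcb1b at -2.0 and Abcc4 at -1.60, each with a wide bar.

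Among the sinusoidal uptake carriers, no SLCO gene passed the test, and the 4 known from hepatocytes spread widely within each genotype. Slco1b2 (chromosome 6, 141629518 to 141686646, plus strand), the liver-specific carrier of bile acids, conjugated bilirubin and many drugs, reached normalized CPM of 232, 739 and 75.1 in WT replicates 1, 2 and 3 and 178, 422 and 218 in the KO replicates. WT replicates 2 and 3 were the highest and the lowest of all 6 tumours, and all KO values lay between them. KO minus WT, the log2 fold change came to -0.36 ± 0.79 (SE, with 3 tumours a genotype; 95% interval -2.24 to 1.52), or 0.83 without WT replicate 2. Its neighbour Slco1a1, a carrier of sulfated steroids that male mouse liver is known to express more than female liver, was counted at 27.0, 60.6 and 6.09 CPM in WT against 3.68, 14.4 and 50.4 CPM in KO. The lowest values were those of KO replicate 1 and WT replicate 3, and the genotypes overlapped across nearly the whole range (-0.45 ± 1.05, or 0.46 without WT replicate 2).

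Slco1a4, which takes up bile acids and cardiac glycosides, stood at 125, 70.1 and 29.5 CPM across WT and at 25.7, 78.1 and 39.7 across KO. WT replicate 1 alone lay above all KO libraries (-0.65 ± 0.60, or -0.05 without it). Slco2b1, a carrier of steroid sulfates and drugs, reached 77.5, 138 and 22.8 CPM in the WT tumours and 25, 78.5 and 111 in the KO tumours. Here too WT replicate 3 and KO replicate 1 were the lowest libraries, and the fold change was -0.15 ± 0.73. The male-biased liver gene Mup20 was also lowest in these 2 libraries, at 598 and 227 CPM against 1477 to 2724 in the others. The other 9 male-biased genes listed summed to 290 and 326 CPM there, 312 in KO replicate 3 and 568 to 611 in the remaining libraries. The part of these genes in the SLCO values was not tested.

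The remaining SLCO genes were low or belong to other cells. Slco2a1, the prostaglandin carrier known from vascular endothelium, was counted at 66.0, 97.6 and 154 CPM in WT against 68.2, 81.8 and 79.1 CPM in KO. WT replicate 3 was highest, and WT replicate 1 lay below all KO libraries (-0.47 ± 0.31, or -0.10 without WT replicate 3). Of 8 endothelial markers, 6 were negative, none was at 0 in all libraries, and their summed CPM was 230 to 278 in WT and 173 to 215 in KO. Their part in the Slco2a1 values was not tested, and in bulk tumours fewer cells of a type and less RNA per cell cannot be told apart. Slco1a6, Slco1a5, Slco3a1 and Slco4a1 stayed at or below 5.01 CPM in every library, with fold changes from -0.75 to 0.32.

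No SLC22 gene passed the test. Slc22a18, a carrier-like gene known to be imprinted, reached 55.8, 73.6 and 60.0 CPM in the WT tumours and 56.8, 76.7 and 93.1 in the KO tumours (0.26 ± 0.23). The groups overlapped, although KO replicate 3 was the highest tumour.

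Slc22a7, the hepatic organic anion carrier, was counted at 15.1, 4.17 and 4.16 CPM in WT against 2.52, 4.94 and 5.65 CPM in KO. Only WT replicate 1 lay above the KO libraries, and without it the fold change of -0.84 ± 0.60 became 0.07. The carnitine carrier Slc22a5 stood at 18.2, 30.3 and 18.8 CPM across WT and at 8.72, 18.2 and 19.2 across KO. KO replicate 1 was lowest and WT replicate 2 highest (-0.54 ± 0.35). Its sequence is not unique, since 26.3% of its 50-base windows also occur in another gene, chiefly its neighbour Slc22a21, so these counts are uncertain.

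Slc22a26 and Slc22a29 belong to a rodent cluster of related organic anion carriers on chromosome 19, and both had an unadjusted p just under 0.05. Slc22a26 (7781041 to 7802667, minus strand) reached 1.30, 110 and 8.95 CPM in the WT tumours and 2.24, 0.948 and 5.20 in the KO tumours. A single tumour, WT replicate 2, lay far above the rest, and WT replicate 1 was below 2 of the 3 KO libraries. The log2 fold change of -3.85 ± 1.56 (unadjusted edgeR p of 0.0444, FDR 1) became -0.87 without that tumour. Slc22a29 (8160165 to 8218900, minus strand) was counted at 4.12, 2.64 and 1.78 CPM in WT against 6.68, 3.45 and 7.26 CPM in KO. KO replicate 2 lay below WT replicate 1, and the other 2 KO libraries lay above all WT libraries. Its fold change was 1.03 ± 0.42 (unadjusted edgeR p of 0.0465, FDR 1).

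The other tested genes of that cluster had smaller fold changes. Slc22a27 ran from 7.39 to 15.7 CPM over the 6 tumours, Slc22a28 from 0.866 to 4.24 and Slc22a30 from 11.3 to 70.6, with fold changes of 0.24, 0.46 and -0.15. WT replicate 2 was the highest library for Slc22a27 and Slc22a30, and KO replicate 3 for Slc22a28. Counts of Slc22a27, Slc22a28, Slc22a29 and Slc22a30 are uncertain, since 28.7 to 53.9% of their 50-base windows recur in another gene, mostly in one another. Slc22a26 is more distinct, with 6.2%, all of them in a pseudogene.

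WT replicate 2 was at once the tumour highest in Slc22a26 and Slco1b2 and the highest for 7 of 7 pericentral and 8 of 11 female-biased liver genes. It was also the highest for 4 of 10 male-biased liver genes and 6 of 7 macrophage markers. The female-biased Cux2 had 78.0 CPM there against 0.361 to 10.1 elsewhere. Of the same list, Cyp17a1 was lowest there, at 5.34 CPM against 22.7 to 184 elsewhere. Cyp2b9 was highest in WT replicate 3 and Hao2 in KO replicate 3. The pericentral glutamine synthetase gene Glul had 581 CPM there against 58.3 to 112. Of the tested genes in the female-biased and pericentral lists, 9 of 10 and 6 of 7 were negative, against 51.8% of all genes. Most of them were highest in this 1 WT library, and none was at 0 in all libraries. Their part in the transporter values was not tested. The bases upstream of Slc22a26 and Slco1b2 are shown as the RefSeq sequence of GRCm38.p6, with capitals for STAT-type letters TTCNNNGAA and, in Slco1b2, also for TATAAA, which it holds 2 times. The first is chr19:7802668-7802917 on the minus strand and the second chr6:141629268-141629517 on the plus strand, each ending at the last base before the start.
Slc22a26: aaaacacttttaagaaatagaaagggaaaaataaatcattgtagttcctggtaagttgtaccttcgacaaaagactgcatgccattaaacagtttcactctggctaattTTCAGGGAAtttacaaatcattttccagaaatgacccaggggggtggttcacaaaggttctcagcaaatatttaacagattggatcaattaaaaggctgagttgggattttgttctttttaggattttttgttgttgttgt
Slco1b2: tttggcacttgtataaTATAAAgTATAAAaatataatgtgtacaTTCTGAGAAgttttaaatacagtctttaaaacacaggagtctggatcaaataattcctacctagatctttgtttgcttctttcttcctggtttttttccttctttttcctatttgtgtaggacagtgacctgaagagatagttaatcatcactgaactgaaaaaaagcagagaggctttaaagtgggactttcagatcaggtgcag
Each held the STAT-type letters once, a sequence found in 7.02% of the 32851 mouse windows of 250 bases, and a match is a description, not a binding site. The patterns marked are those found in each sequence among the ones searched.

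None of the canalicular pumps, which form bile, passed the test, and their intervals were wide. Abcb11 stood at 145, 280 and 166 CPM across WT and at 172, 266 and 238 across KO. The 3 KO tumours lay within the WT range, and the log2 fold change was 0.19 ± 0.31 (95% interval -0.56 to 0.94). It ranged from 0.02 without WT replicate 1 to 0.54 without WT replicate 2. Abcb4 reached 230, 170 and 192 CPM in the WT tumours and 183, 358 and 165 in the KO tumours. KO replicate 2 was highest and KO replicate 3 lowest (0.25 ± 0.34, or -0.18 without KO replicate 2). Abcc2, the pump for bilirubin and glutathione conjugates, was counted at 329, 429 and 592 CPM in WT against 554, 469 and 333 CPM in KO. WT replicate 3 and KO replicate 1 were its 2 highest libraries, in contrast to their place in Slco1a1 and Slco2b1, and the fold change was 0.01 ± 0.31 (95% interval -0.73 to 0.74). Abcg2, a pump for urate and sulfate conjugates, ran from 36.2 to 54.7 CPM in WT and from 38.8 to 53.2 in KO (-0.11 ± 0.22).

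The pair of genes for P-glycoprotein, the multidrug pump, had fold changes of opposite sign, and neither passed the test. Abcb1a and Abcb1b lie side by side on chromosome 5 and are followed by Abcb4. Abcb1b (8798147 to 8866314, plus strand) stood at 0.939, 1.73 and 25.2 CPM across WT and at 2.36, 2.48 and 2.11 across KO. WT replicate 3 stood far above every other library, and the 2 other WT libraries lay below all KO libraries. The fold change of -2.0 ± 1.17 therefore turned to 0.80 without WT replicate 3, and no call was made either way. Abcb1a reached 7.94, 6.25 and 38.1 CPM in the WT tumours and 20.3, 44.1 and 22.1 in the KO tumours. All KO tumours were above WT replicates 1 and 2, but WT replicate 3 was second highest of all (0.73 ± 0.73, or 2.03 without it).

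Per length, Abcb1a exceeded Abcb1b in every tumour, by 1.2 times in WT replicate 3 and 2.86 to 14.1 times in the other 5. The 2 genes share sequence, with 16.3% of the 50-base windows of Abcb1a and 11.1% of those of Abcb1b found in the other, so the counting could have split reads between them, and 10.1% of the Abcb1a exon bases lie opposite another annotated transcript. WT replicate 3 was also the highest library for 3 of 6 cholangiocyte markers, Krt7, Krt19 and Epcam, with Krt19 at 3.04 CPM against 0.200 to 1.22 elsewhere. The summed CPM of the list without Spp1, its most abundant gene, was 22.9 to 33.5 in WT and 22 to 33.8 in KO, and none was at 0. Their part in the Abcb1b values was not tested. The RefSeq bases upstream of Abcb1b (chr5:8797897-8798146, plus strand, GRCm38.p6) are shown because the gene was high in a single tumour, with capitals for the C/EBP-type letters TTGCNNAA on either strand.
Abcb1b: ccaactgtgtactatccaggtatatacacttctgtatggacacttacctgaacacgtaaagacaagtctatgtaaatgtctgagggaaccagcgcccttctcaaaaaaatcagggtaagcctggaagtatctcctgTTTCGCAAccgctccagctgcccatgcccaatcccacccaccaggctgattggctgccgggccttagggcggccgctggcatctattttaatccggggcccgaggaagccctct
Those letters occurred in 9.56% of the windows of this length. Of the letter patterns searched, they were the only ones found upstream of Abcb1b, so the marked pattern is not one set beforehand for this gene.

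**Figure D3:**
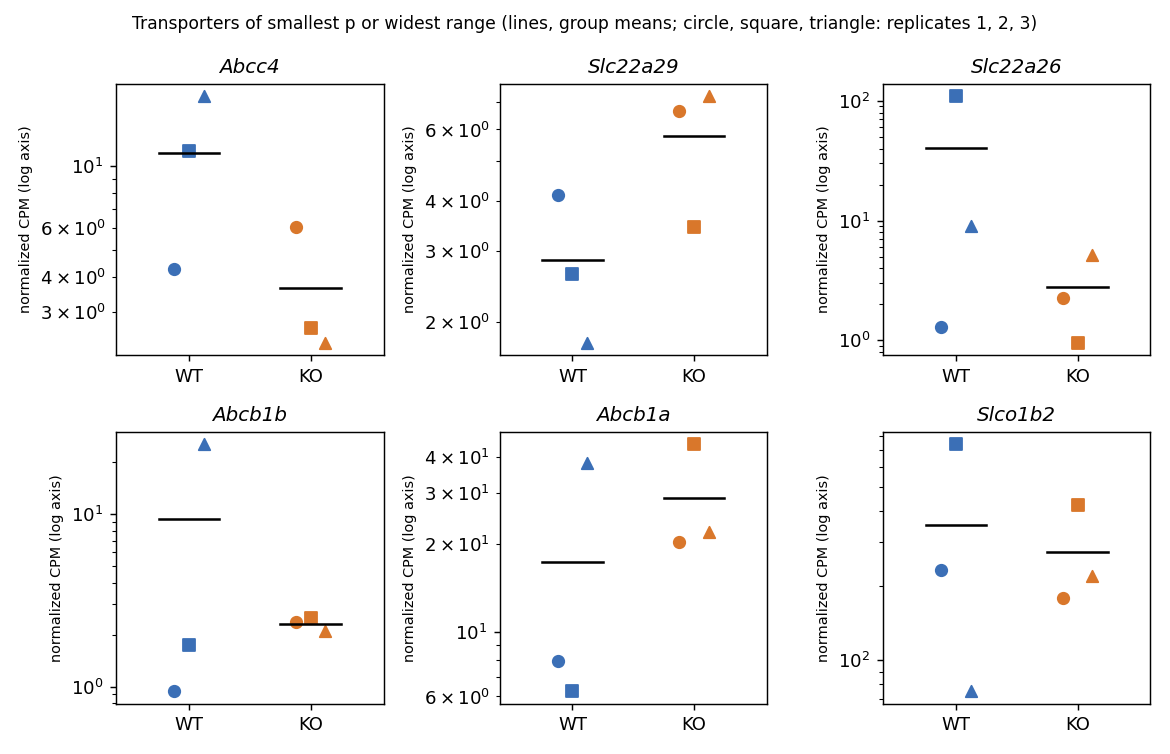
Normalized CPM (log axis) of 6 transporters by genotype, with a circle, square and triangle for replicates 1, 2 and 3 and a line at the group mean. The genotypes overlap in every panel, and Slc22a26 and Abcb1b each show 1 WT tumour, at 110 and 25.2 CPM, far above the rest.

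Of the pumps that face the blood, Abcc4 had the smallest p of all 68 transporters. Abcc4 (chromosome 14, 118482692 to 118706219, minus strand) exports bile acids and cyclic nucleotides, and its transcript was counted at 4.28, 11.3 and 17.8 CPM in WT against 6.03, 2.63 and 2.32 CPM in KO. WT replicates 2 and 3 lay above all KO tumours, while KO replicate 1 lay above WT replicate 1. The log2 fold change was -1.60 ± 0.60 (95% interval -3.04 to -0.17, unadjusted edgeR p of 0.0334, FDR 1). It stayed negative whichever library was omitted, reaching -2.16 when KO replicate 1 was dropped and -1.09 when WT replicate 3 was. Only 0.1% of its 50-base windows occur in another gene.

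Abcc3, which exports glucuronides into blood, stood at 84.7, 268 and 235 CPM across WT and at 103, 134 and 156 across KO. WT replicates 2 and 3 were again the highest tumours and WT replicate 1 the lowest (-0.58 ± 0.43). Abcc6, whose product releases ATP from hepatocytes, reached 166, 216 and 87.1 CPM in the WT tumours and 125, 190 and 184 in the KO tumours, with all KO tumours inside the WT range (0.09 ± 0.36). Abcc10 was counted at 21.4, 22.9 and 12.5 CPM in WT against 15.6, 14.3 and 12.2 CPM in KO (-0.43 ± 0.26). WT replicate 3 lay in the KO range, and the other 2 WT tumours lay above all KO tumours. Abcc9, a potassium channel subunit of mural cells, had -0.35 ± 0.34 while 7 of 8 stellate and fibroblast markers were positive, with summed CPM of 123 to 394 in WT and 269 to 635 in KO and none at 0. The part of those cells in the Abcc9 values was not tested.

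The sterol exporter genes Abcg5 and Abcg8 followed the same tumours, and neither passed the test. Abcg5 and Abcg8 form a heterodimer that sends cholesterol and plant sterols into bile, and their genes lie on opposite strands of chromosome 17, Abcg5 from 84658234 to 84683011 on the minus strand and Abcg8 from 84676302 to 84700333 on the plus strand. Abcg5 stood at 92.3, 118 and 153 CPM across WT and at 129, 89.9 and 93.4 across KO, and Abcg8 at 85.5, 103 and 121 in WT and 134, 94.4 and 89.4 in KO. In both genes WT replicate 3 and KO replicate 1 were the 2 highest tumours and WT replicate 2 came next. Fold changes were -0.22 ± 0.25 and 0.04 ± 0.23, and that of Abcg5 was -0.39 when KO replicate 1 was left out and -0.01 when WT replicate 3 was. The ratio of Abcg5 to Abcg8 CPM was 1.08, 1.14 and 1.27 in WT and 0.962, 0.952 and 1.04 in KO, without overlap between genotypes. This ratio was chosen after its values were seen and was not tested. The annotated exons of the 2 genes overlap by 82 bases on opposite strands, and no source states whether reads were counted by strand.

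A RefSeq sequence of 109 bases (chr17:84683012-84683120, plus strand, GRCm38.p6) is shown because it lies between the RefSeq start of Abcg5 on the left and 1 of 2 RefSeq starts of Abcg8 on the right. The other Abcg8 start lies inside Abcg5, as does the start in the deposited table. Capitals mark TATAAA, which here lies on the minus strand, pointing towards Abcg5.
Abcg5-Abcg8: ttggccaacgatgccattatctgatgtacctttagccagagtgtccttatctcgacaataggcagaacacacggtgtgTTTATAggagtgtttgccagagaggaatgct
Such letters were found in 12.4% of windows of 250 bases upstream of mouse genes. Here too they were marked as the pattern found among those searched.

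**Figure D4:**
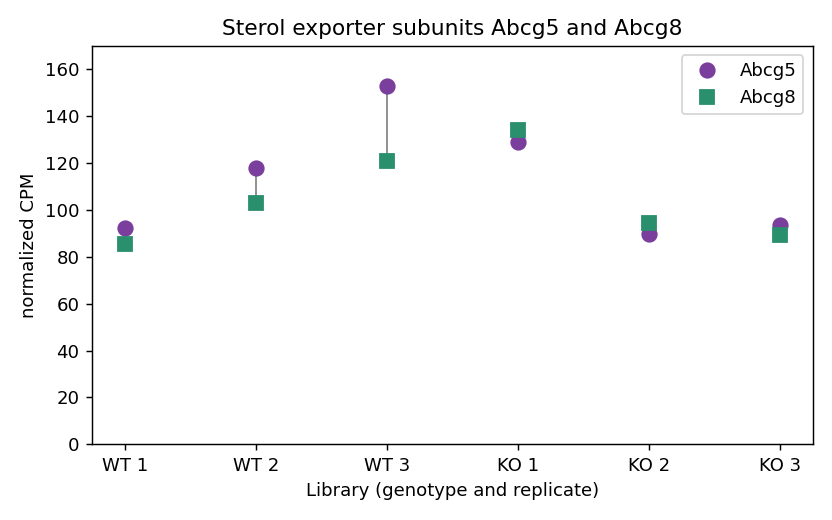
Normalized CPM of Abcg5 (circles) and Abcg8 (squares) in each of the 6 libraries, joined by a line within a library. The 2 genes follow the same tumours, and Abcg5 lies above Abcg8 in all WT libraries and KO replicate 3 and below it in KO replicates 1 and 2.

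Abca1, which loads cholesterol and phospholipid onto apolipoprotein A-I, reached 127, 181 and 280 CPM in the WT tumours and 288, 222 and 131 in the KO tumours. Each genotype had a tumour at either end of the range (0.13 ± 0.39). Abcg1, the sterol pump known from macrophages, ran from 4.73 to 13.2 CPM in WT and from 5.26 to 8.34 in KO (-0.26 ± 0.40). Of the 8 macrophage markers listed, 7 were matched, 6 of those were negative and none was at 0, with summed CPM of 72.4 to 269 in WT and 50.4 to 92.1 in KO. Their part in the Abcg1 values was not tested.

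Abca8b, Abca8a, Abca9, Abca6 and Abca5 lie next to each other on chromosome 11, in that order, and belong to the ABCA6-like branch of lipid carriers. Abca6 was the most abundant ABCA gene per length at 28.9 ± 8.85 RPKM (SD, n = 6), and KO replicate 2 was its highest library, at 276 CPM against 133 to 193 elsewhere. Abca8a had the smallest p of the ABCA class, with 59.3, 82.6 and 54.6 CPM in the WT tumours against 112, 80.9 and 80.0 in the KO tumours. WT replicate 2 lay above KO replicates 2 and 3 on this scale (0.47 ± 0.23, unadjusted edgeR p of 0.0834, FDR 1). In deposited RPKM, without TMM scaling, the genotypes narrowly did not overlap, with 7.27, 11.1 and 7.14 in WT and 17.4, 11.4 and 12.2 in KO. Abca14, next by p, stayed at or below 1.19 CPM (0.58 ± 0.39).

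No ABCD gene, the class of the peroxisomal transporters, passed the test. Abcd3 was counted at 336, 361 and 232 CPM in WT against 155, 371 and 428 CPM in KO, so that KO held both the lowest and the highest tumour (0.04 ± 0.40). Abcd2, a carrier of very long-chain fatty acids, stood at 180, 48.2 and 156 CPM across WT and at 170, 142 and 114 across KO. WT replicate 2 was lowest, the reverse of its place for Slco1b2 (0.15 ± 0.47). Abcd4, a lysosomal cobalamin carrier, had -0.35 ± 0.52 (0.34 without WT replicate 2). Of the mitochondrial transporters, Abcb8 and Abcb10 had fold changes of 0.08 and 0.22, and Abcb6, of whose windows 50% recur in another gene model, had -0.04 ± 0.33.

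The soluble ABC proteins of the ribosome varied least of the 8 classes by the ratio of highest to lowest tumour, and none passed the test. Abce1, which recycles ribosomes, ran from 57.3 to 84.9 CPM in WT and from 58.9 to 71.7 in KO (-0.06 ± 0.20). Abcf1, Abcf2 and Abcf3, which act in translation, had fold changes of 0.01 ± 0.16, -0.04 ± 0.13 and -0.08 ± 0.15. The median ratio of the highest to the lowest tumour was 1.26 in this class, against 4.88 for SLCO, 3.78 for SLC22 and 2.44 over all 68 transporters (2.06 over all genes tested). With these small errors, the 95% interval of the Abcf2 fold change was -0.36 to 0.28, the narrowest of the values named.

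**Figure D5:**
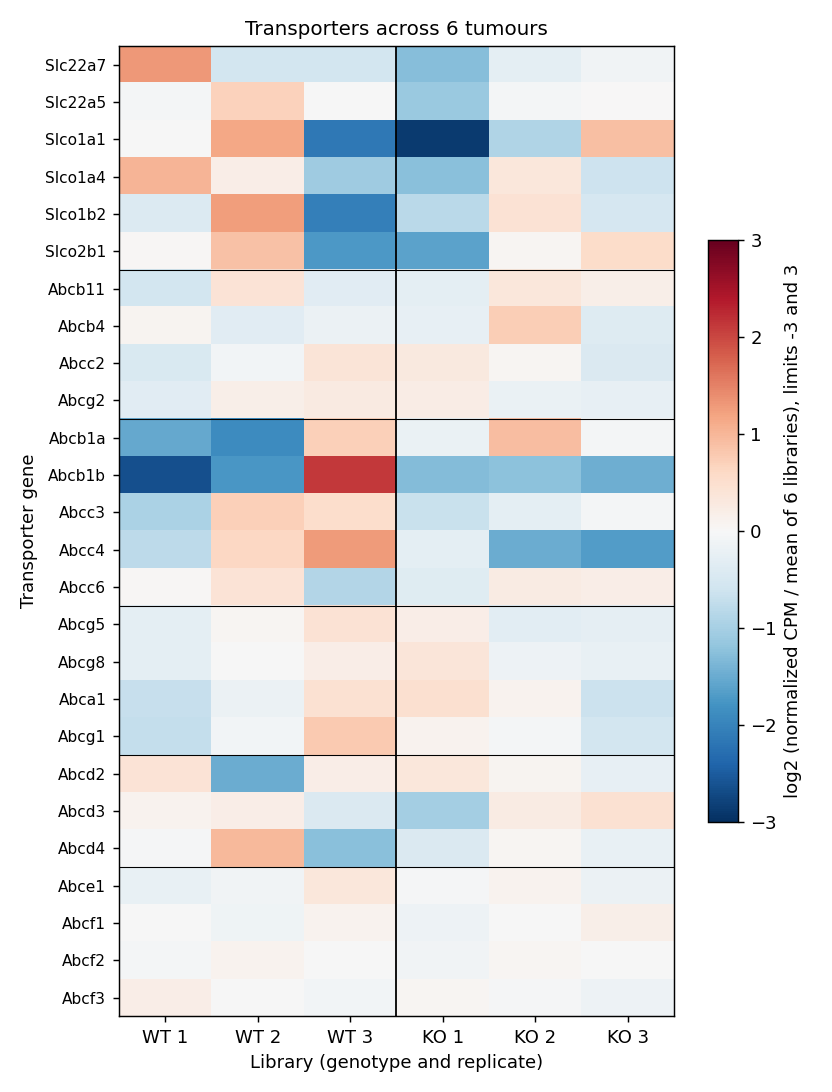
Log2 ratio of normalized CPM to the mean of the 6 libraries for 26 transporters, in blocks from the top of uptake carriers, canalicular pumps (Abcb11 to Abcg2), P-glycoprotein genes with blood-facing pumps, sterol pumps, peroxisomal and related ABCD genes, and ribosomal ABC proteins. The 4 SLCO genes are blue in WT replicate 3 and KO replicate 1, Abcb1b is red in WT replicate 3, and the ribosomal block is near white throughout.

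The tumours that lay apart on the main axis were at the extremes for many genes, transporters among them. That axis was computed from the same libraries and genes, so this is no separate result. The differences from the shares over all genes were not tested. WT replicate 3 and KO replicate 1 were the 2 lowest libraries for 16 of 68 transporters (23.5%, against 15.6% of all genes tested), among them Slco1a1, Slco1a4, Slco1b2, Slco2b1, Slc22a7, Abcc6 and Abcd3. They were the 2 highest for 14 (20.6% against 15%), among them Abca1, Abcc2, Abcc5, Abcg1, Abcg2, Abcg5, Abcg8 and Slco3a1. Each genotype thus held 1 of the 2 tumours lowest in Slco1a1, Slco1a4, Slco1b2, Slco2b1 and Slc22a7 and highest in Abcc2. This did not hold for all carriers, since Slco3a1 and Slc22a23 were highest in these 2 tumours. For 13 transporters (19.1% against 17.1% of all genes) the highest tumour had at least 5 times the CPM of the lowest, with Slc22a26 at 116 times, Abcb1b at 26.8 and Slco1a1 at 16.5. The highest library was WT replicate 2 for 29.4% of the transporters (20% of all genes) and WT replicate 3 for 23.5% (22.2% of all genes). The lowest was WT replicate 1 for 30.9% (16.6% of all genes).

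Other transport genes and the regulators of transporter genes did not pass either. Of 22 further hepatic transport genes tested, edgeR called 0 at FDR 0.05, with 12 positive, a median of 0.06 and 2 at an unadjusted p under 0.05 (DESeq2 called 0 of both lists together). Over all genes tested, 3.62% had an unadjusted edgeR p under 0.05. The genotypes did not overlap for 2 of these 22 genes, against 8.11% of all genes. Atp7b, the copper pump of the canaliculus, reached 39.2, 36.8 and 33.6 CPM in the WT tumours and 56.2, 61.1 and 53.4 in the KO tumours. All KO tumours lay above all WT tumours (0.64 ± 0.14, unadjusted edgeR p of 0.00317, FDR 1). Slc10a5, a relative of the bile acid carriers, was likewise free of overlap (0.60 ± 0.19, unadjusted edgeR p of 0.0165, FDR 1). The sodium-dependent bile acid carrier Slc10a1 was counted at 453, 691 and 207 CPM in WT against 140, 270 and 368 CPM in KO. Its lowest libraries were KO replicate 1 and WT replicate 3, as for Slco1a1, Slco1a4, Slco1b2 and Slco2b1.

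Among 22 regulators, edgeR called 0, with 14 negative, a median of -0.05 and 2 at an unadjusted p under 0.05. Over all genes tested, 51.8% were negative and 3.62% had such a p. The genotypes did not overlap for 4 of the 22 regulators, against 8.11% of all genes. KO was higher for Nr0b2, Nfe2l2 and Keap1, the last by only 0.13 ± 0.13. KO was lower for Esr1, at 15.4 to 31.4 CPM against 32.6 to 41.6 in WT (-0.60 ± 0.27). Nr0b2, the bile acid-induced repressor SHP, stood at 7.55, 8.71 and 13.3 CPM across WT and at 14.4, 36.2 and 18.1 across KO. The groups did not overlap, though WT replicate 3 and KO replicate 1 were close, at 13.3 and 14.4 CPM (1.21 ± 0.40, unadjusted edgeR p of 0.0202, FDR 1). Nfe2l2, the antioxidant response factor NRF2, ran from 58.3 to 74.7 CPM in WT and from 81.1 to 115 in KO (0.56 ± 0.19, unadjusted edgeR p of 0.0239, FDR 1). The bile acid receptor gene Nr1h4 had -0.30 ± 0.45. Nr1i3, the xenobiotic receptor CAR, had 552 CPM in WT replicate 2 against 52.2 to 134 elsewhere (-1.65 ± 0.83).

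Upstream sequence was available from RefSeq for 72 of the 89 transporters, in 84 windows of 250 bases. The GLI consensus letters GACCACCCA, searched on both strands, occurred in 0 of these 84 windows and in 0.225% of all 32851 mouse windows. No match says only that these letters are not in these windows. STAT-type letters were in 8 of the 84 windows (7.02% of all mouse windows) and TATAAA in 11 (12.4%). C/EBP-type letters were in 8 (9.56%) and the antioxidant-type letters TGACNNNGC in 8 (10.2%).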

How the data were processed

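RNA sequencing had been done on 6 mouse liver tumours. The authors deposited 1 table with raw read counts and RPKM values per gene and library, per the file headers. Tools listed without a role in the submitters' processing notes were HTSeq, bcl2fastq and TopHat2 2.0.6, beside the human builds hg19 and GRCh37. The gene identifiers are mouse, and all 89 transporters were shared with GENCODE M21 (GRCm38), 70 with the same start, so coordinates are read as GRCm38. Libraries were grouped by sample title.

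The test of counts was that of edgeR 4.0.16 under R 4.3.3 (filterByExpr, TMM factors, robust quasi-likelihood test, two-sided, Benjamini-Hochberg adjustment over 18359 genes, FDR 0.05). Fold changes are KO minus WT, with SE from the quasi-likelihood F and 95% intervals. Normalized CPM use TMM-scaled library sizes. Deposited RPKM were used for levels between genes. Shared 50-base windows were counted among GENCODE M21 transcripts; 50 bases is an assumed length, since no source states that of the reads. The fits were also run on counts simulated with planted changes. Those counts were drawn independently for each gene and library. They lack differences shared by many genes of a tumour, so they do not show how the fits behave here. Alternatives were RLE factors, DESeq2 1.42.0, limma 3.58.1 voom, no filter, CPM of at least 1 in 3 libraries, FDR 0.1, leaving out each library, a replicate block, and a covariate that splits the libraries by whether the number in their description is under 2000 or above 3900. Overlap of the genotypes in deposited RPKM was added after seeing the data, as were marker sums without their most abundant gene.

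Genes named were, per class, the 2 of smallest p and the 2 of highest RPKM, those past FDR 0.05 or without overlap (0), and a list of hepatocyte transporters. Some genes within these rules are not reported here. Other transporters, Abcg5 to Abcg8 ratios and the genes named from other lists were chosen after their values were seen. The members and lists were chosen with earlier results of these data known. No pair of libraries was identical. Intervals and floors cover counting error only where they rest on reads.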

Additional observations from a re-analysis of the deposited data

How the results depend on the processing

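The count of transporters past FDR 0.05 was 0 under all alternatives run, and the count over all genes was 0 under all but DESeq2, which called 64. The 44 other transport genes and regulators tested also gave 0 throughout. Of the 33 named transporters, 14 kept the sign of their log2 fold change under the 13 alternatives run for each, and 19 changed it under at least 1, with no call made in either direction. Transporters without overlap between the genotypes numbered 0 in normalized CPM and 4 in deposited RPKM, all 4 higher in KO. That scale lacks the TMM factors and was chosen after seeing the data. Outside the omission of a library, the sign changed for Abcd3 (-0.07 with voom, -0.06 with the replicate block), Slco1b2 (0.08 with voom, 0.09 with the replicate block), Abce1 (0.04) and Abcg1 (0.03), the latter 2 with the number-range covariate. Without each library in turn, the fold change ran over -1.79 to 0.46 for Slco1a1, -0.83 to 0.83 for Slco1b2, -0.62 to 0.51 for Slco2b1 and -1.14 to 0.07 for Slc22a7. For efflux pumps it ran over -2.53 to 0.80 for Abcb1b, -0.18 to 0.45 for Abcb4, -0.17 to 0.26 for Abcc2, -0.20 to 0.39 for Abcc6 and -0.26 to 0.01 for Abcg2. For lipid pumps it ran over -0.14 to 0.47 for Abca1, -0.23 to 0.32 for Abca6, -0.54 to 0.23 for Abcg1 and -0.15 to 0.17 for Abcg8. For the remaining classes it ran over -0.24 to 0.48 for Abcd2, -0.24 to 0.38 for Abcd3, -0.74 to 0.34 for Abcd4, -0.17 to 0.13 for Abce1, -0.07 to 0.10 for Abcf1 and -0.13 to 0.01 for Abcf3. Without a change of sign it ran over -0.94 to -0.28 for Abcc3, -0.66 to -0.27 for Abcc10, -0.73 to -0.25 for Slc22a5 and 0.08 to 0.44 for Slc22a18. Class medians ran over -0.38 to 0.20 for SLC22, -0.07 to 0.01 for ABCE/F, -0.26 to 0.17 for ABCG, -0.28 to 0.05 for ABCD, -0.42 to -0.10 for ABCC, -0.63 to -0.08 for SLCO, 0.08 to 0.36 for ABCA and 0.04 to 0.27 for ABCB. The cause was not tested. The labels do not state whether the replicate numbers pair the libraries. Deviations from the group means of same-numbered libraries correlated at -0.29, 0.18 and -0.34. With 3 libraries per genotype, these values cannot show or exclude a pairing. With the replicate block, 0 genes passed, 0 transporters had an unadjusted p under 0.05 (2.73% of all genes did), and Abcc4 had -1.58. With 3 tumours per genotype, the median standard error for a transporter was 0.37. The confidence interval at such an error was much wider than the error itself. For Abca1, with a standard error of 0.39, it ran from -0.81 to 1.06 around a log2 fold change of 0.13. Changes of about the size of the standard error, and changes well above it, could therefore not be told from the spread between tumours.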
